A study of Mus musculus with 20 samples.

Results

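The genes described here code for the proteins of the mitochondrial ribosome. They were taken as every row of the frontal cortex count table with a name of Mrpl or Mrps, a number and at most 1 further letter, and a mean of at least 1 CPM (counts scaled to the library's size) over the 20 libraries. The name pattern matched 76 of 25965 rows. All 76 reached 1 CPM, and no matched row lay below it. The rows with the lowest mean levels were Mrps28, at 6.55 CPM, and Mrpl14, at 7.87 CPM. All 76 genes also passed the filter on low counts that left 16690 genes for testing, so every one of them is counted in what follows.

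Frontal cortex RNA was sequenced from C57BL/6 mice aged 5 months. TDP-43, an RNA-binding protein encoded by Tardbp, carried the change Q331K through a knock-in at its own gene in the mutants. There were 8 homozygous (Q331K/Q331K), 6 heterozygous (Q331K/+) and 6 wild-type (+/+) libraries, with 2, 1 and 0 copies of the allele. The labels name no transgene or Cre. Poly(A) RNA of the whole tissue was measured, so fewer cells of a type and less RNA per cell cannot be told apart. The labels do not say which samples came from separate animals, so a p-value here speaks of the spread between libraries, which may be technical.

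The mitochondrial ribosome translates the few messages of the mitochondrial genome, all of which code for subunits of the respiratory chain and ATP synthase. Its RNA comes from the mitochondrial genome, but all of its proteins are encoded in the nucleus, made in the cytosol and imported. Some of these proteins have counterparts in bacterial ribosomes and others were acquired by the mitochondrial one. Neurons of the cortex depend on oxidative phosphorylation for much of their ATP.

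By role, 49 of the 76 genes code for proteins of the large subunit, which holds the centre that joins amino acids, and 26 for proteins of the small subunit, which reads the message. Of the large-subunit genes, 30 have a bacterial counterpart and 19 are specific to mitochondria. Of the small-subunit genes, 16 have a counterpart and 10 are specific. Names do not always follow the subunit: Mrps18a and Mrps30 code for proteins of the large subunit and were counted there. Mrps36 was counted in neither, since its protein is also known as a component of the oxoglutarate dehydrogenase complex.

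The genes were spread over 17 chromosomes, with 10 on chromosome 11 and 8 on chromosome 17. Of the 76, 75 were matched to the GENCODE M21 annotation by identifier, and Mrpl33 was not. In that annotation 22 of the 76 (28.9%) start within 1000 bases upstream or 200 bases downstream of the start of a protein-coding gene on the other strand, an arrangement called head to head. The same held for 1599 of the 15274 protein-coding genes tested (10.5%). The partners include genes of mitochondrial and ribosomal function: Mrps12 faces Sars2, the mitochondrial seryl-tRNA synthetase, Mrpl36 faces Ndufs6, a subunit of respiratory complex I, Mrps27 faces Ptcd2, a mitochondrial RNA-binding protein, and Mrpl49 faces Fau, from which a cytosolic ribosomal protein is cut. These pairs were picked by what the partner is known to do.

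RefSeq promoter windows (build GRCm38.p6) of 300 bases, from 250 before to 50 after the start, were matched for 67 of the 76 genes. They were searched on both strands for motifs of factors known to act at nuclear genes for mitochondrial proteins. NRF1 (nuclear respiratory factor 1) and the ETS-family factor GABP are activators of such genes, and YY1 is a common factor at the start of housekeeping genes. These 4 windows are shown because Mrpl12 and Mrps27 had the smallest p-values in the homozygotes, and Mrps11 and Mrps12 share their start regions with another gene of mitochondrial translation. Sequences run 5′ to 3′ on the gene's strand, and capitals mark the motif, on either strand: GCGC, any base, T and GCGC in a row (NRF1) in Mrpl12, CCGGAAG (ETS) in Mrps27 and Mrps12, and AANATGGCG (YY1) in Mrps27 and Mrps11. The windows are chr11:120484387-120484686 on the plus strand for Mrpl12, chr13:99344536-99344835 on the plus strand for Mrps27, chr7:78782881-78783180 on the plus strand for Mrps11 and chr7:28741772-28742071 on the minus strand for Mrps12.
Mrpl12: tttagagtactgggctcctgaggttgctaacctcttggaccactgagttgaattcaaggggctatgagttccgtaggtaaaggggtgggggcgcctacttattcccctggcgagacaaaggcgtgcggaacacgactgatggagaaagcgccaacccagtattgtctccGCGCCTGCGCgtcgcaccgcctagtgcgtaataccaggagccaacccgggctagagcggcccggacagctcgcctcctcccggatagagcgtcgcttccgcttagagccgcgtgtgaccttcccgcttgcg
Mrps27: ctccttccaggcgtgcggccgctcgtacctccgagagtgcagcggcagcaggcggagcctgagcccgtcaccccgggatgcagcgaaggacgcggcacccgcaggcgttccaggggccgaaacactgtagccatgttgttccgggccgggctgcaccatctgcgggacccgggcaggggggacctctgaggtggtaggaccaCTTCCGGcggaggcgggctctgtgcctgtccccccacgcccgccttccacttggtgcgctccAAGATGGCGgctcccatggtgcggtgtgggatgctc
Mrps11: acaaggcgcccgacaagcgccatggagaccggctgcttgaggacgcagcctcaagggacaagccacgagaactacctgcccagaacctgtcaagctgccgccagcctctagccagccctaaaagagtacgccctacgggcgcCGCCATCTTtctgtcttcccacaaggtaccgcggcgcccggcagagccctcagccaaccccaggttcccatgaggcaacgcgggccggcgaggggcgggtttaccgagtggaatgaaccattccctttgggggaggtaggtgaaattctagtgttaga
Mrps12: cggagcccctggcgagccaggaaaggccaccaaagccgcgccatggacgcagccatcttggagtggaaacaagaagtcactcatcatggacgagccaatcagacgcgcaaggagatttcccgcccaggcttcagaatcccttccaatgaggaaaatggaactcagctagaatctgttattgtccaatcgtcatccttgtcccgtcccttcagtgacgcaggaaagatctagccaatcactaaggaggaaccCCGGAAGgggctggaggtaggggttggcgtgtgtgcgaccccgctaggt

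The ETS motif was found in 24 of the 67 promoters (35.8%), against 16.7% of the 11315 tested genes with a promoter window and 9.93% of all 27025 genes with one. NRF1 letters were found in 12 (17.9%), against 9.81% of tested genes and 5.19% of all genes. YY1 letters were found in 10 (14.9%), against 4.90% and 2.76%. At least 1 of these 3 motifs stood in 40 of the 67 promoters (59.7%), and in 27.5% of the tested genes. The letters TATAAA were in 5 promoters (7.46%), against 9.43% of tested genes, and CCAAT in 27 (40.3%), against 42.5%. The motifs do not overlap each other in the windows shown. A match is a description of the letters and not of a bound factor.

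Per length of exon, the genes were expressed below the cytosolic ribosomal protein and respiratory chain genes in wild-type cortex. The 75 genes with an annotated length lay between 1.46 and 41.5 CPM per kb of merged exons, a 28.5-fold range, with a median of 9.67. The middle 50% lay between 5.60 and 14.9 CPM per kb. Large-subunit genes had a median of 9.82 CPM per kb and small-subunit genes one of 8.70. On the same scale the median was 51.1 for 78 genes of cytosolic ribosomal proteins and 46.4 for 73 nuclear genes of oxidative phosphorylation.

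**Figure D1:**
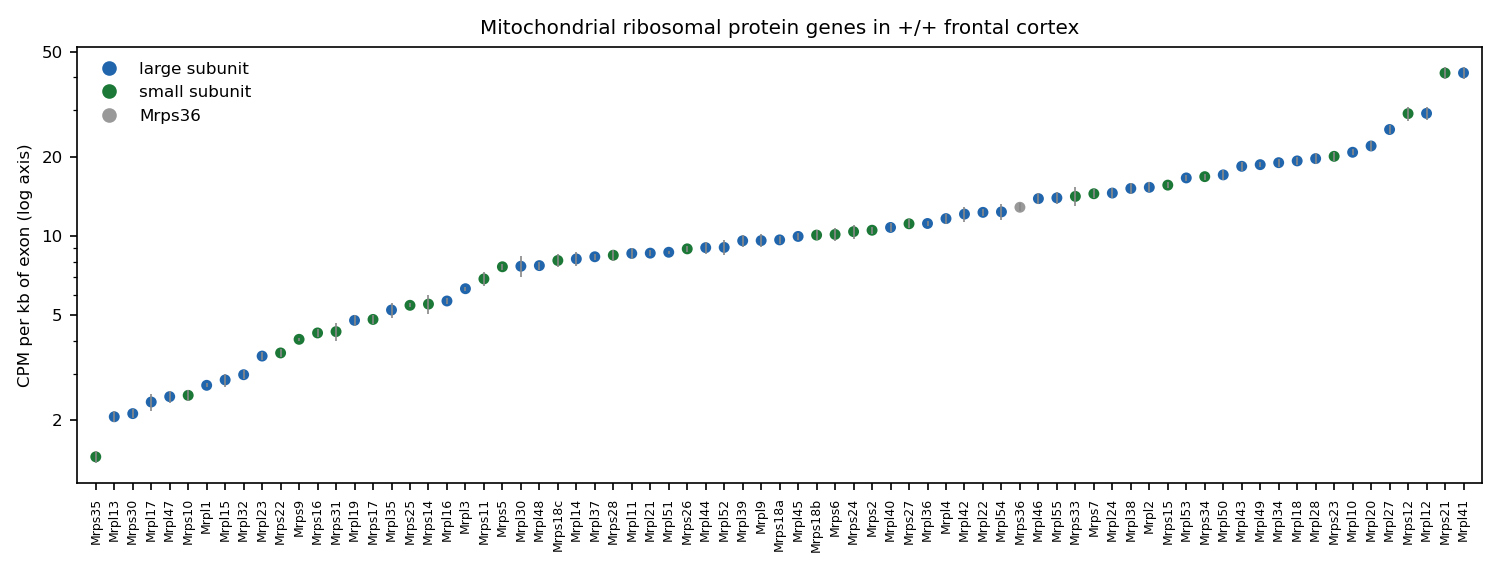
Level of each of 75 genes in wild-type (+/+) frontal cortex, in CPM per kb of merged exons on a log axis, ordered from low to high. Points are means of 6 libraries, bars are SD, and colour gives the subunit. Genes of both subunits are found along the whole range from 1.46 to 41.5 CPM per kb.

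The highest level per kb was that of Mrpl41, a large-subunit protein specific to mitochondria, at 41.5 CPM per kb, with Mrps21, the small-subunit counterpart of bacterial S21, at the same 41.5. Mrpl12, the counterpart of the bacterial stalk protein L7/L12 that receives translation factors, followed at 29.2 CPM per kb. Mrps12, the counterpart of bacterial S12 in the decoding centre, was at 29.1, and Mrpl27, the counterpart of L27, at 25.3. The lowest were Mrps35, a small-subunit protein specific to mitochondria, at 1.46, and Mrpl13, the counterpart of L13, at 2.07. Mrps30, Mrpl17 and Mrpl47 followed at 2.12, 2.35 and 2.46 CPM per kb. The order depends on the length used. With the median length of the protein-coding transcripts in the basic annotation, a choice made after the data were seen, the range was 3.02 to 73.9 CPM per kb, with 2 of the 5 highest and 4 of the 5 lowest genes shared with the first order.

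The paralogs Mrps18a, Mrps18b and Mrps18c show how far this matters. Their proteins descend from the same bacterial S18, the first sits in the large subunit and the other two in the small one. In the counts by class, Mrps18c is a gene with a bacterial counterpart, while Mrps18a and Mrps18b are among those called specific to mitochondria, as in the systematic names of the ribosome's proteins. Their wild-type levels per kb of merged exons were 9.67, 10.1 and 8.08 CPM, and per kb of basic transcript 47.4, 22.4 and 13.6 CPM. Mrps18c shares exon sequence with the annotated gene Gm43511. In the genotype comparisons these 3 genes had log2 differences between homozygotes and wild type of -0.02, -0.04 and -0.01, none past an adjusted p of 0.05 (edgeR).

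The levels varied little between libraries. The coefficient of variation over the 20 libraries ran from 2.27% to 9.53%, with a median of 4.89%, against 7.31% over all genes tested. It was 4.61% for nuclear oxidative phosphorylation genes, 6.02% for cytosolic ribosomal protein genes and 17.5% for the messages of the mitochondrial genome. All genes tested include some far below the 76 in level, and these medians were not matched for level. Within wild type alone the median was 4.30% for the 76 genes, 3.59% for nuclear oxidative phosphorylation genes and 4.20% for cytosolic ribosomal protein genes, so a low spread was not particular to the set. The steadiest was Mrpl3, the counterpart of bacterial L3. It had a lowest, median and highest level of 40.9, 41.9 and 44.7 CPM in homozygotes, 42.1, 42.4 and 42.8 CPM in heterozygotes and 40.9, 42.1 and 42.9 CPM in wild type. Its 3 ranges lay within each other, and the next steadiest genes were Mrpl49 (2.56%) and Mrps18a (2.70%). The most variable was Mrpl30, the counterpart of L30, at 20.2, 23.2 and 28.3 CPM in homozygotes, 22.5, 25.3 and 27.9 CPM in heterozygotes and 22.2, 24.97 and 28.0 CPM in wild type. Its 3 ranges overlapped almost wholly. Mrps33, a small-subunit protein specific to mitochondria, and Mrps24 were the next most variable, at 7.81% and 8.54%.

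The comparison of homozygotes with wild type asked which of these genes differ when both alleles carry the change. None of the 76 passed the test. At an adjusted p under 0.05 (edgeR quasi-likelihood test, Benjamini-Hochberg adjusted over all genes), 0 of 76 were called, against 1.56% of all genes tested. DESeq2 also called 0 of the 76, against 639 of the 21484 genes it tested. At an unadjusted p under 0.05 there were 14 of 76, of which 13 had lower estimates in homozygotes and 1 higher, that is 18.4%, against 16.1% of all genes. No gene of the set had all homozygous libraries below or above all wild-type ones, against 0.515% and 0.264% of all genes. The smallest adjusted p was 0.144, for Mrpl12.

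The estimates were small and mostly negative. Of 76 log2 changes, 60 were negative (78.9%), against 49.4% of all genes. Their median was -0.03, against 0.0013 over all genes, and they ran from -0.14 for Mrps24 to 0.10 for Mrps35. The 95% interval lay within 0.2 of zero on the log2 scale for 74 of the 76 genes, and within 0.3 for all 76; these intervals are per gene and not adjusted for their number. The lowest bound was -0.26 and the highest 0.18. Large-subunit genes had a median of -0.03 with 38 of 49 negative, and small-subunit genes a median of -0.04 with 21 of 26 negative. Among the large-subunit genes those with a bacterial counterpart had a median of -0.02 and those specific to mitochondria one of -0.03. Among the small-subunit genes these medians were -0.03 and -0.06.

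**Figure D2:**
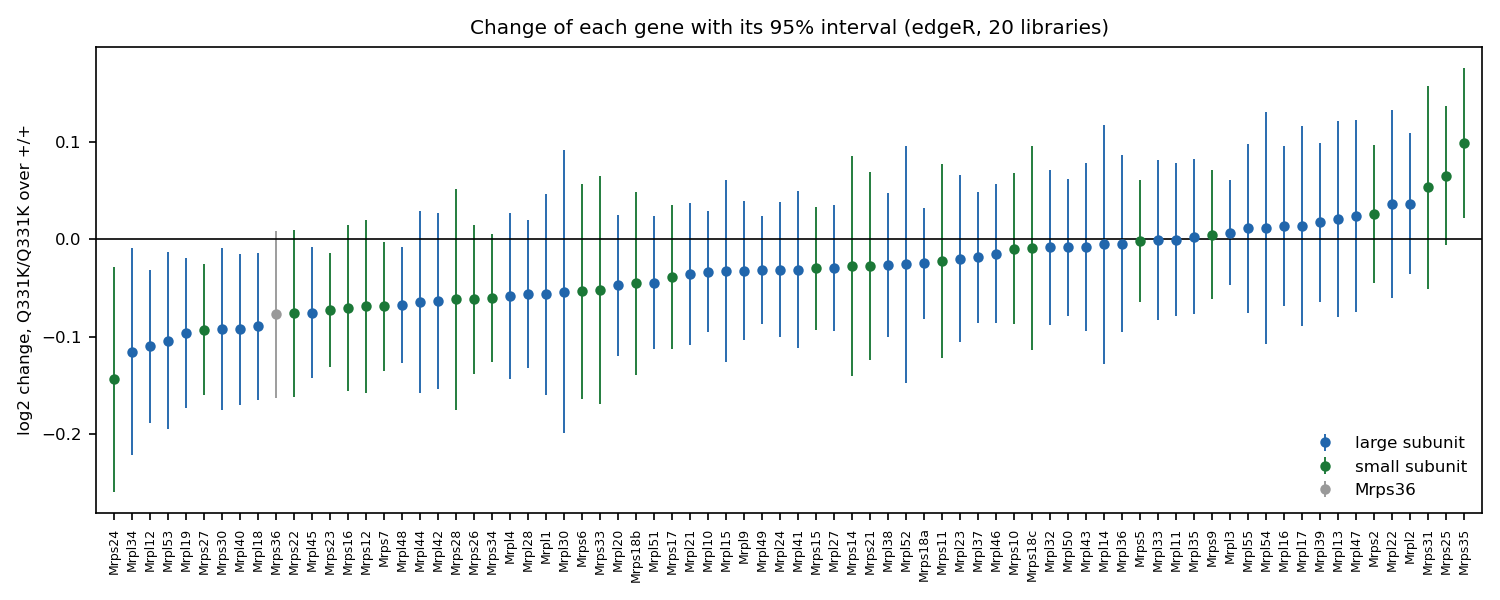
Log2 change between homozygotes (Q331K/Q331K) and wild type (+/+) for each of the 76 genes, ordered from lowest to highest, with 95% intervals from the edgeR fit of 20 libraries. The estimates run from -0.14 (Mrps24) to 0.10 (Mrps35), 60 are below zero, and the largest distance of an interval's end from zero is 0.26.

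In the large subunit, the gene with the smallest p was Mrpl12, the stalk protein, whose product is also known to bind the mitochondrial RNA polymerase. Its position in GRCm38 is chromosome 11, plus strand, 120484613 to 120489065. Its lowest, median and highest levels were 38.2, 41.7 and 43.9 CPM in homozygotes, 42.5, 44.2 and 48.0 CPM in heterozygotes and 40.5, 45.1 and 47.7 CPM in wild type. Most homozygous libraries lay in the lower part of the wild-type range, and the ranges overlapped. The log2 change was -0.11 ± 0.038 (SE; edgeR adjusted p = 0.144). Mrpl12 averaged 41.4 ± 1.93 CPM in homozygotes, 44.7 ± 1.95 CPM in heterozygotes and 44.7 ± 2.53 CPM in wild type (SD, n = 8, 6 and 6).

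Mrpl19, the counterpart of bacterial L19, had 22.9, 24.6 and 26.0 CPM as lowest, median and highest level in homozygotes, 23.1, 25.1 and 26.6 CPM in heterozygotes and 24.7, 25.7 and 27.8 CPM in wild type. The genotypes overlapped over much of their range, and the log2 change between homozygotes and wild type was -0.10 ± 0.037 (SE; edgeR adjusted p = 0.197). Mrpl2, the counterpart of L2, which lies next to the peptidyl transferase centre, had the highest estimate of the large subunit. Its median was 18.2 CPM in homozygotes, 17.3 CPM in heterozygotes and 17.9 CPM in wild type, and its log2 change was 0.04. Mrpl22, the counterpart of L22 at the exit tunnel, had medians of 12.5, 12.2 and 12.1 CPM in the same genotypes and a log2 change of 0.04. Neither change was called (edgeR adjusted p = 0.656 for Mrpl2 and 0.755 for Mrpl22).

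In the small subunit, Mrps27, a mitochondrion-specific protein with pentatricopeptide repeats, had 21.04, 21.7 and 23.5 CPM in homozygotes, 21.6, 22.4 and 23.6 CPM in heterozygotes and 22.1, 23.4 and 24.5 CPM in wild type, as lowest, median and highest level. The homozygous library with 23.5 CPM stood apart from the other 7, which lay from 21.04 to 22.1 CPM. The log2 change was -0.09 ± 0.033 (SE; edgeR adjusted p = 0.152). Mrps23, another mitochondrion-specific protein, had medians of 29.7 CPM in homozygotes, 29.7 CPM in heterozygotes and 31.1 CPM in wild type. The ranges overlapped, at 28.99 to 30.6 CPM in homozygotes, 28.4 to 30.5 CPM in heterozygotes and 29.8 to 33.2 CPM in wild type. The log2 estimates against wild type were -0.07 for homozygotes (edgeR adjusted p = 0.205) and -0.08 for heterozygotes (edgeR adjusted p = 0.9996, unadjusted p = 0.0121), and neither passed.

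Mrps24, the counterpart of bacterial S3, had the lowest estimate of the set. Its position is chromosome 11, minus strand, 5703983 to 5715680. Its levels were 11.2, 14.2 and 14.96 CPM in homozygotes, 14.3, 15.6 and 16.2 CPM in heterozygotes and 14.4, 14.8 and 16.9 CPM in wild type, as lowest, median and highest. Of the homozygous libraries 5 of 8 lay below every heterozygous and wild-type one. The highest of these 5, replicate 4 at 14.291 CPM, lay barely below the lowest heterozygous one, at 14.296 CPM. The lowest homozygous libraries, at 11.2 and 12.6 CPM, stood apart from the other 6, which lay from 13.98 to 14.96 CPM. The log2 change was -0.14 ± 0.056 (SE; edgeR adjusted p = 0.199). Mrps24 shares exon sequence with Urgcp on the same strand, so its count is uncertain. Since the strand setting of the counting is not known, the same holds for Mrpl12, Mrpl19 and Mrps27, whose exons overlap those of Gm16755, Gcfc2 and 6430562O15Rik on the opposite strand.

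Mrps35 was the gene with the highest estimate and the only one with an unadjusted p under 0.05 in the upward direction. Its position is chromosome 6, plus strand, 147042764 to 147070903. It had 12.7, 13.5 and 13.96 CPM in homozygotes, 12.99, 13.5 and 13.8 CPM in heterozygotes and 11.5, 12.7 and 13.2 CPM in wild type. The carriers of 1 and of 2 alleles had the same median, and their ranges overlapped that of wild type. The log2 estimate against wild type was 0.10 in homozygotes (edgeR adjusted p = 0.187) and 0.10 in heterozygotes (edgeR adjusted p = 0.9996, unadjusted p = 0.0227), and neither passed. Mrps25, another mitochondrion-specific protein, had medians of 37.6, 35.7 and 36.1 CPM in homozygotes, heterozygotes and wild type, and Mrps31, likewise specific, had 14.97, 14.8 and 13.96 CPM. Their log2 changes between homozygotes and wild type were 0.07 and 0.05 (edgeR adjusted p = 0.364 and 0.651).

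**Figure D3:**
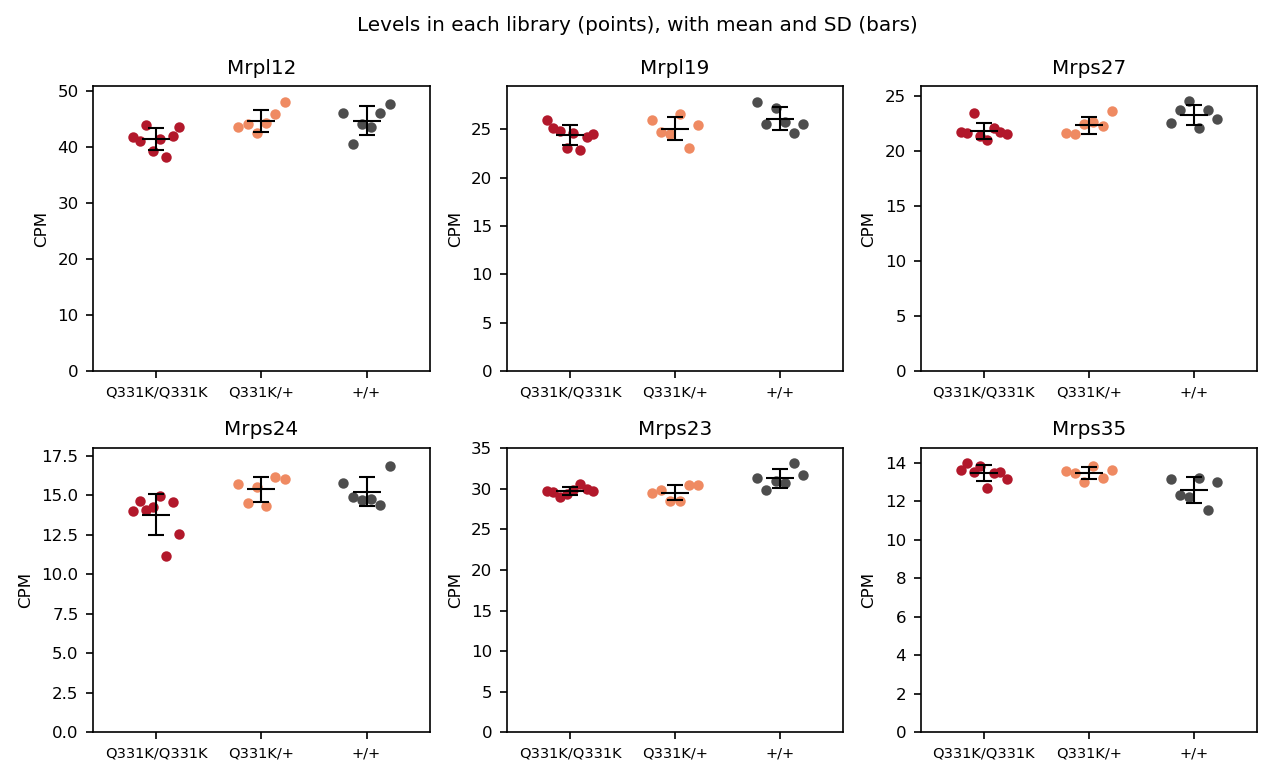
CPM of 6 genes in each library, with homozygotes (Q331K/Q331K, n = 8) at the left, heterozygotes (Q331K/+, n = 6) in the middle and wild type (+/+, n = 6) at the right; bars are mean and SD. The genotypes overlap in each panel, and Mrps24 has 5 of 8 homozygous libraries below the other genotypes, the lowest at 11.2 and 12.6 CPM. The highest of these 5 lies at 14.291 CPM, barely below the lowest heterozygous library at 14.296 CPM.

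The other genes with an unadjusted p under 0.05 between homozygotes and wild type were Mrpl34, Mrpl53, Mrps30, Mrpl40, Mrpl18, Mrpl45, Mrps7 and Mrpl48, with log2 changes from -0.12 for Mrpl34 to -0.07 for Mrpl48. These were listed after their values were seen, and none had an adjusted p under 0.219 (edgeR). Mrpl53 shares exon sequence with Gm42688 on the same strand, and Mrpl48 has a named pseudogene. Exons of another gene overlapped those of 31 of the 76 genes. Over the 44 annotated genes with no such overlap, 32 log2 changes were negative and the median was -0.03. Mrpl46 and Mrps11, whose first exons overlap on opposite strands, had log2 changes of -0.01 and -0.02.

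A single allele was compared with none in heterozygotes and wild type. At an adjusted p under 0.05, 0 of 76 were called with edgeR, against 0.0% of all genes. With DESeq2 0 of the 76 were called, against 2 of 21484 genes. At an unadjusted p under 0.05 there were 4 of 76 (5.26%), against 3.19% of all genes. They were Mrps35, already described, and Mrps23, Mrpl42 and Mrps30, with lower estimates in heterozygotes. The edgeR adjusted p was 0.9996 for each. Mrpl42, a large-subunit protein specific to mitochondria, had medians of 41.2 CPM in heterozygotes and 44.9 CPM in wild type, a log2 change of -0.10. Mrps30 had medians of 13.5 CPM in heterozygotes and 13.98 CPM in wild type, a log2 change of -0.09. Mrpl55 and Mrpl24 had the next smallest p-values among higher estimates, at log2 changes of 0.08 and 0.06. Of the 76 estimates 47 were negative, against 48.8% of all genes, and their median was -0.01. Over the 44 genes without an overlapping exon, 30 were negative with the same median. No gene of the set had groups without overlap, against 0.108% below and 0.0899% above among all genes.

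Homozygotes were also set against heterozygotes, a comparison of the second allele with the first. Again 0 of 76 were called with edgeR, against 0.108% of all genes. With DESeq2 0 of the 76 were called, against 102 of 21484 genes. At an unadjusted p under 0.05 there were 8 of 76 (10.5%), 6 lower and 2 higher in homozygotes, against 11.0% of all genes. Mrpl12 had a log2 change of -0.11 (edgeR adjusted p = 0.310) and Mrps24 one of -0.16 (edgeR adjusted p = 0.320). Mrpl24, the counterpart of L24, had one of -0.09. The 3 higher estimates of smallest p were 0.09 for Mrpl2, 0.07 for Mrps25 and 0.07 for Mrpl43, a large-subunit protein specific to mitochondria. Of the 76 estimates 46 were negative, against 50.2% of all genes, with a median of -0.02. Over the 44 annotated genes without an overlapping exon, 21 were negative and the median was 0.00086, so the tilt was not seen there. No gene of the set had groups without overlap, against 0.198% below and 0.0899% above among all genes. The 3 comparisons share libraries, so their counts are not independent of each other.

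A trend over 0, 1 and 2 alleles called 0 of 76 with edgeR, against 1.83% of all genes. With DESeq2 it called 0 of the 76, against 701 of 21483 genes. At an unadjusted p under 0.05 there were 14 of 76 (18.4%), against 16.8% of all genes. The median log2 change per allele was -0.02, with 58 of 76 negative. Without overlapping genes 31 of 44 were negative at a median of -0.01. Mrpl12 had the smallest adjusted p, 0.129, at a log2 change of -0.06 per allele. Its call depended on 1 wild-type library: without +/+ replicate 2, whose 40.5 CPM was the lowest wild-type level, the trend of Mrpl12 passed at a log2 change of -0.07 per allele (edgeR adjusted p = 0.0426).

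The CPM of the 76 genes, Mrps36 among them, was then summed within each library. The 7 ribosomal proteins with other names were left out, and levels were not divided by length. The summed level was 1799 ± 30.8 CPM in homozygotes, 1820 ± 30.2 CPM in heterozygotes and 1842 ± 21.2 CPM in wild type (SD, n = 8, 6 and 6). Libraries ran from 1768 to 1850 CPM in homozygotes, from 1781 to 1863 CPM in heterozygotes and from 1816 to 1866 CPM in wild type, so the genotypes overlapped. This order was absent without the TMM scaling factors, which set libraries against each other by the bulk of their genes. As a plain share of all counts the genes made up 0.182 ± 0.0046% in homozygotes, 0.182 ± 0.0044% in heterozygotes and 0.182 ± 0.0032% in wild type (SD, n = 8, 6 and 6). The small downward shift was seen with TMM scaling, and the median log2 change between homozygotes and wild type was also -0.03 with the size factors of DESeq2, but the plain share did not show it.

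The genotypes' mean ratios of large-subunit to small-subunit messages differed by less than the spread between libraries. Large-subunit genes summed to 1182 ± 21.1 CPM in homozygotes, 1196 ± 19.2 CPM in heterozygotes and 1211 ± 15.8 CPM in wild type (SD, n = 8, 6 and 6). Small-subunit genes summed to 602 ± 10.02 CPM in homozygotes, 608 ± 12.5 CPM in heterozygotes and 615 ± 5.94 CPM in wild type. The ratio of large to small was 1.96 ± 0.0200 in homozygotes, 1.97 ± 0.0252 in heterozygotes and 1.97 ± 0.0149 in wild type.

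Within the homozygotes the libraries were not alike. The median deviation of the 76 genes from their wild-type mean, on the log2 scale, was -0.02, -0.0046, 0.02 and -0.03 in homozygous replicates 1 to 4, and -0.05, -0.06, -0.06 and -0.06 in replicates 5 to 8. In heterozygotes it ran from -0.03 to 0.02 and in wild type from -0.02 to 0.03. Replicates 5 to 8 thus lay below every heterozygous and wild-type library, and replicates 1 to 4 did so only once, for replicate 4. The same 4 libraries had the lowest homozygous medians for nuclear oxidative phosphorylation genes, from -0.12 to -0.06, and for cytosolic ribosomal protein genes, from -0.16 to -0.08. They also had the lowest homozygous sums of 8 oligodendrocyte markers, at 3215, 2780, 3301 and 2536 CPM, while the sums in replicates 1 to 4 ran from 3772 to 4067 CPM. Microglial sums divided along the same line, at 357 to 398 CPM in replicates 5 to 8 and 403 to 436 CPM in 1 to 4. Ependymal sums did so narrowly, at 9.82 to 12.99 CPM and 13.17 to 28.6 CPM. By the ependymal score, a mean of scaled marker levels, replicate 5 (0.29) lay above replicate 3 (0.23). The line was drawn from these same libraries, and other lists did not follow it. Astrocyte sums were 2068 CPM in replicate 3 and 2132 CPM in replicate 5, and choroid plexus sums 4.71 and 10.2 CPM. Sums of the oligodendrocyte markers ran from 3324 to 4802 CPM in heterozygotes and from 3031 to 4214 CPM in wild type. In those genotypes the library with the lowest sum did not have a low median deviation of the 76 genes. It was 0.02 in heterozygous replicate 6 and 0.01 in wild-type replicate 5. At the highest sums it was -0.02 in heterozygous replicate 2 and -0.0061 in wild-type replicate 3. Heterozygous replicate 1, at 4102 CPM, had 0.01. The part of these differences in the levels of the ribosomal genes was not tested.

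**Figure D4:**
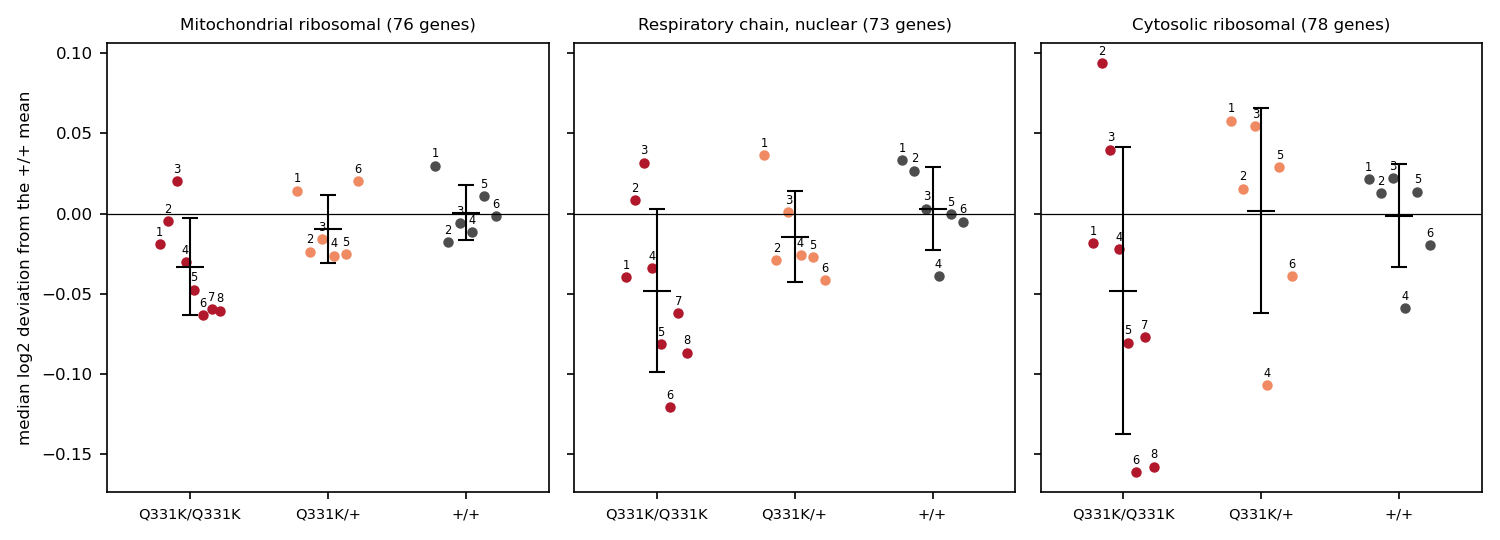
Median log2 deviation from the wild-type mean in each library, for the 76 mitochondrial ribosomal genes, 73 nuclear oxidative phosphorylation genes and 78 cytosolic ribosomal protein genes. Points are libraries with their replicate number (homozygotes at the left, heterozygotes in the middle, wild type at the right), and bars are mean and SD. Homozygous replicates 5 to 8 are the lowest homozygotes in each panel, at -0.05 to -0.06 for the mitochondrial ribosomal genes.

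Tardbp and some markers of other cell types also differed between genotypes. Tardbp itself was at 245 ± 10.5 CPM in homozygotes, 230 ± 7.58 CPM in heterozygotes and 218 ± 5.53 CPM in wild type (SD, n = 8, 6 and 6). Between homozygotes and wild type, 154 of all 16690 genes tested were called lower in homozygotes and 107 higher. Of 9 markers of parvalbumin interneurons 4 were called lower. Their sums were 1571 to 1717 CPM in homozygotes, 1738 to 1797 CPM in heterozygotes and 1733 to 1949 CPM in wild type. Of 8 ependymal markers tested 1 was called higher, with sums of 9.82 to 28.6 CPM in homozygotes, 10.2 to 20.02 CPM in heterozygotes and 9.44 to 11.7 CPM in wild type. For meningeal fibroblasts 0 of 10 markers were called, all 10 estimates were positive with a median log2 change of 0.33, and sums ran from 91.1 to 147 CPM in homozygotes, 84.2 to 109.9 CPM in heterozygotes and 60.8 to 117.7 CPM in wild type. Olfactory bulb markers, 0 of 7 called, summed to 61.2, 84.7 and 97.7 CPM in homozygous replicates 2, 5 and 8, and to at most 37.1 CPM in every other library. Striatal markers summed to 588 CPM in heterozygous replicate 1 and to at most 332 CPM elsewhere. The sums of 10 excitatory neuron markers, which define this tissue, overlapped, at 6561 to 7149 CPM in homozygotes, 6832 to 7578 CPM in heterozygotes and 6828 to 7698 CPM in wild type. With 4 libraries left out for their ependymal score (homozygous replicates 1, 2 and 4 and heterozygous replicate 2), 0 of the 76 genes were called and their median log2 change between homozygotes and wild type was -0.05. This alternative was chosen after the data were seen, and the homozygotes it keeps are replicate 3 and the low replicates 5 to 8 described before. With scores of ependymal, olfactory bulb and meningeal markers in the fit it was also -0.05, and 0 were called. The part of these cell types in the result was not tested.

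Genes that act around the ribosome were followed in 9 lists. Between homozygotes and wild type 1.56% of all genes tested were called. Counts of 0 in lists of this size, and 1 of 78, lie near that share. Proteins of the mitochondrial ribosome with other names numbered 7, of which 0 were called and 5 had negative estimates between homozygotes and wild type. Factors that assemble the ribosome gave 0 called of 25, the mitochondrial aminoacyl-tRNA synthetases 0 of 19, and mitochondrial RNA handling 0 of 20. Their median log2 changes were 0.0022, 0.0030 and -0.02, against -0.03 for the 76 genes. Nuclear genes of oxidative phosphorylation gave 0 called of 73 with 67 negative and a median of -0.05. The 13 messages of the mitochondrial genome in the table, which the ribosome translates, gave 0 called at a median of -0.17. Their estimates ran from -1.26 to 0.08. The half-width of their 95% intervals had a median of 0.28 and reached 2.66, with a lowest bound of -3.83. Of the cytosolic ribosomal protein genes 1 of 78 was called, Rps15a, with 72 negative and a median of -0.04. All lists are on the TMM scale.

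The largest called change in these lists was in Rmnd1, among 16 mitochondrial translation factors of which 1 was called. Its protein sits in the inner mitochondrial membrane and is needed for mitochondrial translation. Its lowest, median and highest levels were 26.3, 27.4 and 30.6 CPM in homozygotes, 31.8, 32.8 and 37.0 CPM in heterozygotes and 31.7, 35.1 and 38.3 CPM in wild type. No homozygous library reached the level of any heterozygous or wild-type one. Rmnd1 fell by 0.32 on the log2 scale (SE 0.046) in homozygotes relative to wild type, at an edgeR adjusted p of 0.000395, and by 0.25 relative to heterozygotes (edgeR adjusted p = 0.0239). The call against wild type was kept under all 29 alternatives tried, with a largest adjusted p of 0.0328 (edgeR or DESeq2). The call against heterozygotes was lost when Q331K/+ replicate 2 or 6 or Q331K/Q331K replicate 1 or 8 was left out (edgeR adjusted p = 0.0560 to 0.0958), with a log2 change of -0.26 to -0.22. It was also lost with 3 surrogate variables, at -0.22 (edgeR adjusted p = 0.348), and with the same tissue scores in the fit, at -0.24 (edgeR adjusted p = 0.0968). Its exons overlap those of Gm16153 on the opposite strand. In heterozygotes the level was 33.4 ± 1.84 CPM and in wild type 34.9 ± 2.44 CPM (SD, n = 6 each), a difference that was not called.

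Among 12 regulators of mitochondrial biogenesis 1 was called. Esrra codes for the nuclear receptor ERR alpha, a known activator of genes for mitochondrial proteins. It was at 36.4 ± 1.33 CPM in homozygotes, 39.4 ± 1.56 CPM in heterozygotes and 40.0 ± 1.80 CPM in wild type (SD, n = 8, 6 and 6). It fell by 0.14 on the log2 scale in homozygotes relative to wild type (edgeR adjusted p = 0.0346). The call was lost without +/+ replicate 1, 2, 3, 5 or 6 or Q331K/Q331K replicate 3, 4, 5 or 6 (edgeR adjusted p = 0.0513 to 0.107), with a log2 change of -0.15 to -0.12. It was lost too with only the compared genotypes in the fit, at -0.14 (edgeR adjusted p = 0.0560), with 3 surrogate variables, at -0.09 (edgeR adjusted p = 0.3999), with the same tissue scores in the fit, at -0.11 (edgeR adjusted p = 0.214), and without the 4 libraries of high ependymal score, at -0.13 (edgeR adjusted p = 0.105). Its exons overlap those of Trmt112 on the opposite strand and Mir6990 on the same strand. Rps15a, a cytosolic small-subunit protein with many processed copies in the genome, was at 117 ± 4.55 CPM in homozygotes, 122 ± 1.57 CPM in heterozygotes and 127 ± 4.80 CPM in wild type (SD, n = 8, 6 and 6), and fell by 0.12 (edgeR adjusted p = 0.0345). This call was lost without +/+ replicate 1, 2, 3, 5 or 6 or Q331K/Q331K replicate 5, 6, 7 or 8 (edgeR adjusted p = 0.0542 to 0.0909), with a log2 change of -0.12 to -0.10. It was lost too with only the compared genotypes in the fit, at -0.12 (edgeR adjusted p = 0.0759), and with the same tissue scores, at -0.14 (edgeR adjusted p = 0.0583).

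None of the 22 head-to-head partners was called between homozygotes and wild type, against 1.56% of all genes tested. Across the 22 pairs the partner's adjusted p between homozygotes and wild type was lowest for Hira, a histone chaperone that faces Mrpl40, at 0.0631 (edgeR). Hira had a log2 change of -0.10 and Mrpl40 one of -0.09. Sars2, facing Mrps12, had a log2 change of 0.04 where Mrps12 had -0.07. Ptcd2, facing Mrps27, had -0.08 where Mrps27 had -0.09. By promoter motif, the median log2 change was -0.04 over the 24 genes with the ETS letters and -0.03 over the 43 without. It was -0.03 over the 12 with the NRF1 letters and -0.03 over the 55 without, and -0.03 over the 10 with the YY1 letters and -0.03 over the 57 without. These splits are descriptions with no test.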

How the data were processed

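Frontal cortex RNA was measured in 20 libraries, grouped by the genotype in the labels. The deposited table holds the authors' raw counts, whole numbers for each gene with no normalisation. Per the labels' protocols the kit was stranded and selected poly(A) RNA, and Trim Galore 0.4.3, HISAT2 2.0.5 and the build GRCm38 are named in the submitters' processing notes. How reads were counted, and whether by strand, is not given in the sources used, so genes that overlap on either strand may share reads. Library totals ran from 61282647 to 111440766 counts. The 56 rows without a gene identifier were kept.

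The test was edgeR 4.0.16 (R 4.3.3) with TMM scaling, filterByExpr and the robust quasi-likelihood fit, on all 20 libraries by genotype. Adjustment was by Benjamini-Hochberg over 16690 genes, with a threshold of 0.05. For the trend, the allele count entered as a numeric term. Levels are CPM with TMM factors. The fit was tested on simulated data. Per-length levels used merged exons of GENCODE M21, to which 96.5% of identifiers were matched. Other settings tried were DESeq2 1.42.0 and its size factors within edgeR, other filters on low counts, 3 surrogate variables from sva 3.50.0, replicate number as a block, fits of only the genotypes in a comparison, and leaving out single libraries. Scores of tissue markers in the fit, and leaving out 4 libraries by their ependymal score, were chosen after the data were seen. Genes named by rule were those of smallest p in each direction (5 for homozygotes against wild type, 3 otherwise), the 5 highest and 5 lowest per kb, the 3 most and 3 least variable, the Mrps18 paralogs, the 2 lowest levels, and the called genes of related lists. Further genes were named for an unadjusted p under 0.05, their subunit, annotation or neighbouring gene, some of them after their values were seen. The members, lists and rules were chosen with earlier results of these data known, and 1 gene, Mrp63, was added to the list of other mitoribosome subunits after the files were read.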

Additional observations from a re-analysis of the deposited data

Results flagged for a closer look

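Of 108 groups of libraries examined for a sample far from the others, 3 held one; chance flags about 5% of such groups. Mrps27 was at 23.5 CPM in Q331K/Q331K replicate 3, while the other 7 homozygous libraries lay from 21.04 to 22.1 CPM. Mrps18b was at 17.1 CPM in Q331K/+ replicate 4, below the 20.2 to 21.8 CPM of the other 5 heterozygous libraries. The ratio of summed large-subunit to small-subunit levels was 1.94 in +/+ replicate 2, below the 1.97 to 1.98 of the other 5 wild-type libraries.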

How the results depend on the processing

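The count of mitochondrial ribosomal genes called in homozygotes against wild type, heterozygotes against wild type and homozygotes against heterozygotes was 0 under every one of the 29 alternatives tried for each. For the trend over alleles it was 0 under 27 of 28, and from 0 to 1 as single libraries were left out, with Mrpl12 called without +/+ replicate 2. The median log2 change of homozygotes against wild type stayed negative, from -0.04 to -0.03 with single libraries left out and from -0.05 to -0.02 otherwise. These fits share libraries, so the range shows the effect of the settings and not the error of the estimate. The number of genes at an unadjusted p under 0.05 in that comparison was 14 in the reported fit (18.4%, against 16.1% of all genes), 7 with the replicate block (9.21%, against 18.4%) and 5 with 3 surrogate variables (6.58%, against 12.6%), all with edgeR. The difference in summed level depended on the scaling: as a share of all counts its log2 value was 0.0015 for homozygotes against wild type, 0.0016 for heterozygotes against wild type and -0.00015 for homozygotes against heterozygotes, against -0.03, -0.02 and -0.02 on the TMM scale. The cause was not tested. Of 806 alternative values for 28 changes of named genes, 804 kept their direction and side of the threshold. The trend of Mrpl2 turned to -0.0028 per allele with 3 surrogate variables, and the cause was not tested.

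Replicate numbers did not pair the libraries: deviations of same-numbered libraries correlated at -0.10 to 0.14, with 4 of 18 pairs best with their own number. With the replicate number as a block, the median log2 change was -0.02, -0.01, -0.0064 and -0.01 in the 4 comparisons (homozygotes or heterozygotes against wild type, homozygotes against heterozygotes, trend), and 0 genes were called. The block also ended the calls of Rps15a in homozygotes against wild type (log2 change -0.09, edgeR adjusted p = 0.0660) and of Rmnd1 against heterozygotes (log2 change -0.23, edgeR adjusted p = 0.0709).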
